A study of Mus musculus with 6 samples.

Results

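Sharp promoters at annotated gene starts are promoters at which most RNAs begin within a few bases. They were selected on cap analysis of gene expression (CAGE) tags, sequenced from the 5′ ends of RNAs enriched for the cap. Tags of 6 libraries were pooled, positions with 30 or more tags were joined on the same strand when they lay up to 20 bp apart, and the resulting clusters were kept when they held 100 or more tags within 500 bp of the 5′ end of a protein-coding transcript. A promoter was sharp when the central 80% of its pooled tags, from the 10th to the 90th percentile position, spanned 10 bp or less. By this rule 4420 of 19659 clusters at coding starts were sharp (22.5%), out of 31147 clusters of 100 or more tags in the whole genome. They belonged to 3502 of the 11998 genes with a cluster.

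RNA polymerase II starts transcription in a pair of broad ways. At focused promoters a TATA box, bound by the TATA-binding protein, or an initiator element at the start itself fixes the polymerase on one or a few bases. At dispersed promoters, which mostly lie in CpG islands, starts are spread over a wide stretch. Focused promoters are known for histone genes, for inducible genes such as the immediate early genes, and for genes of specialised tissues, whereas most widely expressed genes use dispersed ones. Messenger RNAs of ribosomal proteins and translation factors are a case of their own, since they begin with a cytosine and a run of pyrimidines, the 5′ terminal oligopyrimidine (TOP) motif through which growth signals control their translation.

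The libraries were made from nuclear RNA of a pair of mouse cell lines, with 3 libraries each. The mESCs are R08, an embryonic stem cell line grown without feeder cells in serum with leukemia inhibitory factor. The mOPCs are oli-neu, a line of oligodendrocyte progenitors immortalised with the t-neu oncogene and grown with thyroid hormones, bFGF and PDGF-BB. The labels name no treatment of either line. Each cell type is a single line, and the labels do not say whether its libraries came from separate cultures, so p-values measure the spread between these libraries. All libraries of a cell type carry the same library label in the deposited rows and the cell types carry different labels, so that a difference of preparation and a difference of cell type cannot be told apart. Libraries held 16657021 to 40928704 tags. Log levels of the clusters correlated at 0.990 to 0.995 between libraries of a cell type and at 0.349 to 0.357 between the cell types. The labels matched the markers: the summed level of 20 pluripotency markers was 9431 to 10849 counts per 1000000 tags (CPM) in mESCs and 64.3 to 70.6 CPM in mOPCs, and that of 23 oligodendrocyte lineage markers was 117 to 124 CPM in mESCs and 8405 to 8969 CPM in mOPCs. No cluster was found for the lineage markers Cldn11 and Nkx2-2, or for 9 of 12 markers of other neural cells and 10 of 12 stromal and endoderm markers. The markers of other neural cells summed to 5.40 to 6.37 CPM in mESCs and 85.7 to 106 CPM in mOPCs, and their part in the results was not tested.

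Sequences before the start are shown for chosen promoters with and without the letters TATAA. These letters were present at 191 of the 1688 sharp promoters with a sequence (11.3%). The following windows, from RefSeq promoter sequences of GRCm38.p6, run from 40 bases before the dominant start, the position with the most pooled tags, to 10 bases from it on, 5′ to 3′ on the strand of the gene. Capitals mark the letters TATAA and the recorded start with the base after it. The first set holds sharp promoters with TATAA, from genes used in both cell types (Eef2, a translation elongation factor, Ddx5, an RNA helicase, the histone genes Hist1h1e and Hist1h4d, and Hspa5, a chaperone of the endoplasmic reticulum) and from transcription factor genes used mainly in 1 cell type (Olig2, Klf4 and Tfcp2l1).
Eef2, chr10:81176605-81176654, + strand: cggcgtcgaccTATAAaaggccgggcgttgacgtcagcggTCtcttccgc
Ddx5, chr11:106788486-106788535, - strand: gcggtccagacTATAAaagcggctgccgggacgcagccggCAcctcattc
Hist1h1e, chr13:23622547-23622596, - strand: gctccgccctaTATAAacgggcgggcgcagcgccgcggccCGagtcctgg
Hist1h4d, chr13:23581527-23581576, + strand: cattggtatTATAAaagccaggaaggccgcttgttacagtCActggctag
Hspa5, chr2:34772051-34772100, + strand: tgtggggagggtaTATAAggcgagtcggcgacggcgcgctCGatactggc
Olig2, chr16:91225531-91225580, + strand: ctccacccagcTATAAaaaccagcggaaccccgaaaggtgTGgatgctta
Klf4, chr4:55532467-55532516, - strand: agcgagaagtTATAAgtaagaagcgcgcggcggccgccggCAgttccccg
Tfcp2l1, chr1:118627904-118627953, + strand: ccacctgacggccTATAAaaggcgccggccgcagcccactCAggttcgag
In these 8 promoters the first T of TATAA lay 27 to 31 bases before the recorded start.

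The second set holds sharp promoters without these letters in the window, of the splicing factor Srsf5, the chromatin protein Jade1, the growth factor Fgf4 and the fatty acid binding protein Fabp7. The absence of TATAA says only that these letters are not there: the Fgf4 window holds a run of alternating T and A that does not end in AA.
Srsf5, chr12:80945493-80945542, + strand: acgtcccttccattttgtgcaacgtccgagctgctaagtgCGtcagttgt
Jade1, chr3:41555691-41555740, + strand: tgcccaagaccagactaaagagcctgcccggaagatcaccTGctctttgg
Fgf4, chr7:144861345-144861394, + strand: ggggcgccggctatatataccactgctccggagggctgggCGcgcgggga
Fabp7, chr10:57784882-57784931, + strand: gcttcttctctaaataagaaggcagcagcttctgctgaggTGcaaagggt
The third set shows the ribosomal protein gene Rpsa and the initiation factor gene Eif3f, with the recorded start and the next 5 bases in capitals.
Rpsa, chr9:120127747-120127796, + strand: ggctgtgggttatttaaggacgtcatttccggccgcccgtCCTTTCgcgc
Eif3f, chr7:108934376-108934425, + strand: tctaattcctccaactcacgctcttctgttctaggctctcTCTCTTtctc
In both, the base after the recorded start was C and the next 4 were C or T.

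Sharp promoters formed the narrow end of a wide distribution. Their median width was 4 bp, against 35 bp at the 15239 other promoters, and 947 of them had a width of 1 bp. A median of 66.0% of the tags of a sharp promoter lay at its dominant start, against 26.0% at the others, and 791 consisted of a single kept position. These widths chose the promoters and are a description. At the limit, 279 promoters had a width of 10 bp and 305 clusters just outside it 11 bp. The deepest inside were App, the amyloid precursor, with 24917 tags, and Lman1, a cargo receptor of the secretory pathway, with 24577 tags. The deepest just outside were Ncl, the nucleolar protein nucleolin, with 102896 tags and Hdac2, a histone deacetylase, with 51232 tags. At Ncl 69.6% of tags lay at the dominant start, against 44.8% at App.

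**Figure D1:**
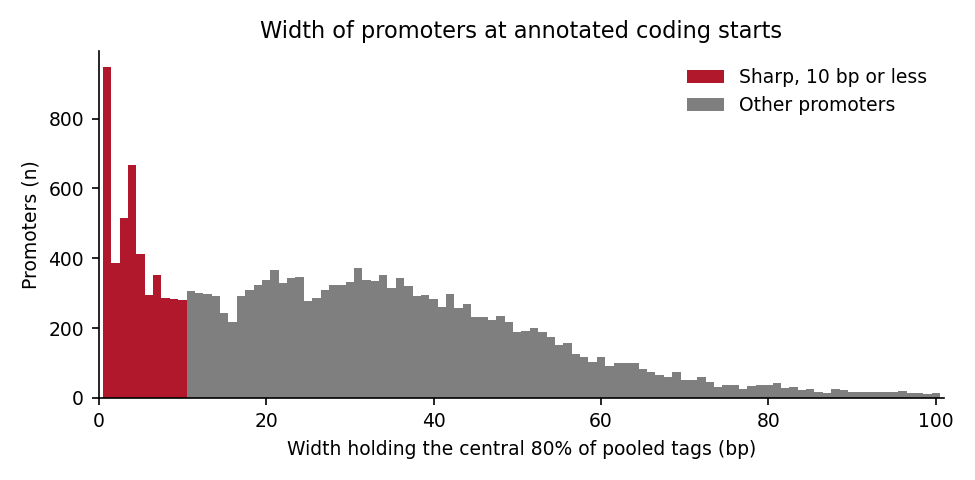
The horizontal axis gives the width in bp that holds the central 80% of the pooled tags, and the vertical axis the number of promoters at coding starts. Red bars are the 4420 sharp promoters and grey bars the others, of which 307 wider than 100 bp are not drawn. The tallest bar is the 947 promoters with a width of 1 bp.

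Most sharp promoters were weak, and many were side starts of a gene. Their median was 217.5 pooled tags (quartiles 134 and 609), against 2613 at other promoters. Only 1498 (33.9%) were the cluster with the most tags of their gene, against 10500 (68.9%) of the others, and 1010 were its sole cluster. The other 2922 lay at a median of 167.5 bp from the dominant start of the main cluster of the gene. 714 genes had 2 or more sharp promoters. Olig2, Slc5a6, Ctbp2 and Anks1b each had 7, a number noticed after the values were seen. At Olig2 the main one held 90.2% of the tags of the gene and the next one 5.36%.

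The share of sharp promoters went with tag number. Positions under 30 tags were left out, so that the flanks of a weak cluster were not seen. Of clusters with 100 to 300 tags 57.3% were sharp, and of those with 3000 to 10000 tags 5.63%. At the upper end the share rose again, to 15.0% at 30000 to 100000 tags and to 40% (14 of 35) above. With all tags within 20 bp counted, the share narrow by this measure was 13.5% at 100 to 300 tags, 4.28% at 3000 to 10000 and 40% at the top. The width was then 10 bp or less at 0 of the other 15239 promoters. That count was largely fixed in advance, since tags were only added to clusters already wider than 10 bp. Of the 4420 sharp promoters, 1780 (40.3%) stayed at 10 bp or less, but 688 of the 860 (80%) with 1000 or more tags did. Results for weak sharp promoters are therefore less certain, and values for the 721 sharp promoters that had 1000 or more tags and were the main cluster of their gene are given beside those for all.

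Narrow width carried over between libraries in part. Promoters were chosen as sharp from the mESC libraries alone, and their width was measured over all tags in the mOPC libraries. It was 10 bp or less at 853 of 2338 (36.5%) with at least 100 mOPC tags, against 56 of 9331 other promoters (0.600%). In the other direction, of promoters chosen in mOPCs and measured in mESCs, the numbers were 858 of 2143 (40.04%) and 57 of 10319 (0.552%). When a single library was held out, 41.5 to 66.5% of sharp and 0.296 to 0.358% of other promoters were this narrow in it. Widths over all tags are larger than those over kept positions, as the values above show, and no test was made.

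Of the sequence features searched, TATAA differed most in its share between sharp and other promoters. A window was found in the RefSeq table for 1688 of the 4420 (38.2%) and for 7194 of the other promoters (47.2%), and promoters without one are not described. Since fewer than 80% had a window, the shares are void as statements on all sharp promoters. TATAA was searched on the strand of the gene with its first T 36 to 24 bases before the recorded start. It was present in 191 of the 1688 (11.3%, 95% exact binomial interval 9.84 to 12.9), in 34 of the 7194 others (0.473%, 0.328 to 0.660), in 225 of all 8882 promoters at coding starts with a window (2.53%), and in 1015 of all 32851 RefSeq promoters counted from the annotated start (3.09%). The intervals describe counting alone: without molecular identifiers, copies made in amplification count as tags, and all promoters come from the same libraries. The same site read on the other strand, TTATA, was present in 3.97% of sharp and 0.264% of other promoters. Both are found where the sequence reads TTATAA.

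**Figure D2:**
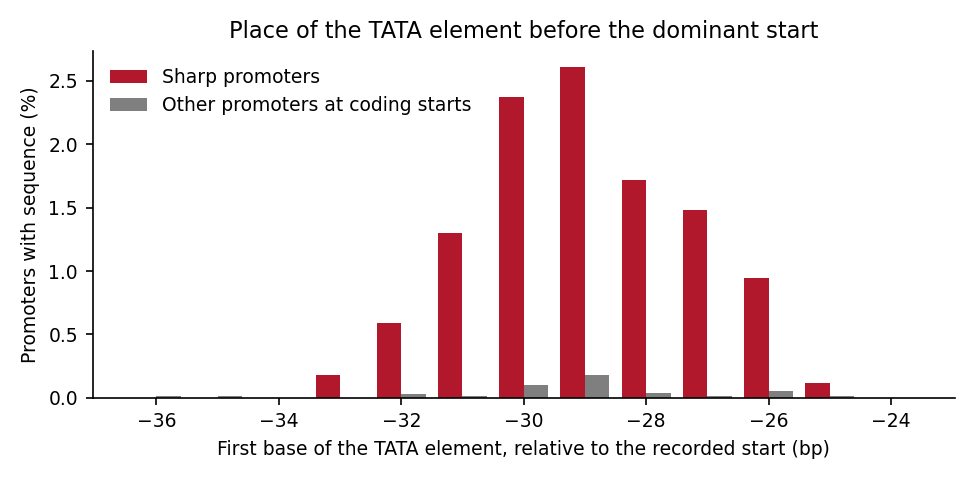
The horizontal axis gives the place of the first base of the TATA element relative to the recorded dominant start, in bp, and the vertical axis the percent of promoters with a sequence window. Red bars are sharp and grey bars other promoters at coding starts. Red bars rise to 44 promoters at 29 bases and 40 at 30 bases before the start, and grey bars stay low at every place.

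The place of TATAA was narrow as well. The median distance was 29 bases, with 44 promoters at 29 bases and 40 at 30 bases, and none of the sharp promoters had it at 34 to 36 or at 24 bases. Among deep main promoters TATAA was present in 121 of 412 sharp (29.4%, 25.01 to 34.03) and 22 of 4873 other ones (0.451%, 0.283 to 0.683). The share fell with width, from 40.8% at 1 bp and 37.4% at 2 to 5 bp to 11.8% at 6 to 10 bp, 1.07% at 11 to 20 bp and 0.335% at 21 to 40 bp. It was 22.99% in sharp promoters that stayed within 10 bp when all tags were counted and 1.22% in those that did not. Of the sharp promoters that were not the main cluster of their gene, 1.96% had it.

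**Figure D3:**
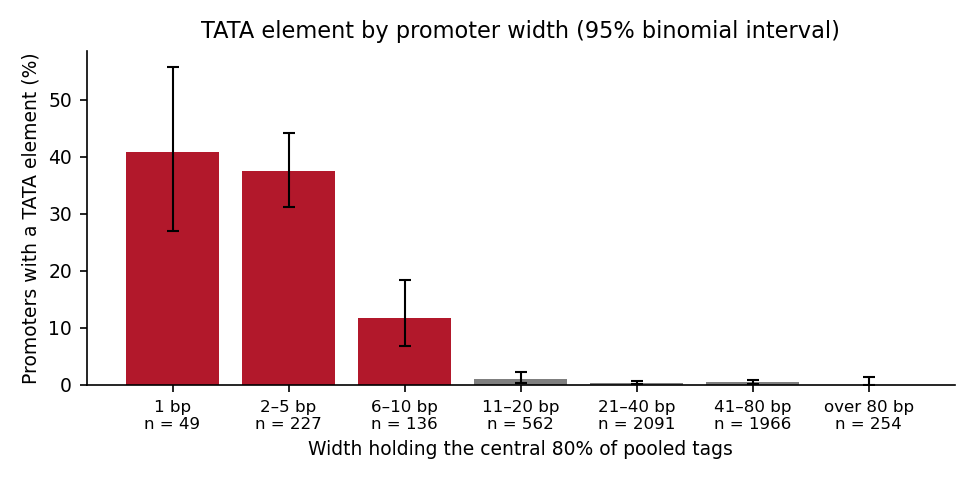
The horizontal axis groups main promoters with 1000 or more tags by their width in bp, with the number that have a sequence window, and the vertical axis gives the percent with TATAA. Error bars are 95% exact binomial intervals. The bars fall from 40.8% at 1 bp to 1.07% at 11 to 20 bp and stay low beyond.

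The step at the start itself differed less. At 87.0% of sharp and 89.02% of other promoters the recorded start was C or T and the base after it A or G. RNA usually begins at the purine of this step, so the deposited positions may lie 1 base before the first base of the RNA on both strands. This was not tested, and all places in this text, the distance to TATAA included, are counted from the position as deposited. The step CA was present at 44.4% of sharp and 36.6% of other promoters, and CG at 16.3% and 24.01%. In the 100 bases before the start, sharp promoters held a median of 8 CpG and the others 10, and 11.4% of sharp and 4.77% of other promoters held 2 or fewer. Starts of the pyrimidine kind, a C after the recorded start followed by 4 pyrimidines, were present at 50 sharp (2.96%) and 138 other promoters (1.92%). They are described with the ribosomal proteins below.

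The dominant start rarely moved between the cell types. In 1109 sharp promoters with 20 or more tags in every library, the same position was dominant in all 6 at 873 (78.7%), against 4924 of 10707 other promoters (46.0%). At 37 (3.34%) all mESC libraries shared one position and all mOPC libraries another, against 1353 (12.6%) of the others. A promoter with few bases to choose from has fewer ways to move, so these shares partly restate the rule. The 37 moves had a median of 3 bp and a largest value of 8 bp.

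The moves with the most tags were changes in balance between bases used in both cell types. At Ndufa12, a subunit of respiratory complex I, the mESC start held 39.6% of mESC and 27.4% of mOPC tags, and the position 2 bp upstream held 14.9% and 28.4%. At Slc38a2, an amino acid transporter with TATAA at 28 bases, the mESC start held 56.7% and 44.0%, and the position 2 bp upstream 31.4% and 46.2%. At the histone gene Hist2h2ac, also with TATAA at 28 bases, the mESC start held 41.02% and 20.5%, and the position 5 bp upstream 38.4% and 57.9%. In these genes the upstream base gained in mOPCs. The same was seen at Akap13, a scaffold for protein kinase A, where the mESC start held 37.7% and 23.3%, and the position 6 bp upstream 8.44% and 24.8%. Dpm1, an enzyme of glycosylation, moved 2 bp upstream, with 32.3% of mESC and 46.5% of mOPC tags at the upstream position. Gm11808 moved 6 bp upstream, with 38.3% and 46.3% there, but is a gene model whose short tags may be shared with near copies, so its values are uncertain. A downstream move was seen at Tmbim6, an inhibitor of cell death, by 1 bp with 34.0% of mESC and 43.3% of mOPC tags at the downstream position. The levels of these genes differed little in several cases: Slc38a2 was 1.44-fold and Dpm1 1.55-fold higher in mOPCs (adjusted p = 8.50e-07 and 1.31e-08), and Akap13 1.15-fold higher (adjusted p = 0.0454), which did not pass without mESC replicate 2 or 3.

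Sharp promoters took a larger share of the tags at coding starts in mESCs than in mOPCs. The share was 13.7%, 13.0% and 12.8% in the mESC libraries (13.2% ± 0.503, SD, n = 3) and 10.1%, 9.86% and 9.77% in the mOPC libraries (9.92% ± 0.196, n = 3). The groups did not overlap, and the difference of -3.24 percentage points had p = 0.1 in a two-sided exact permutation test, the smallest p that 3 libraries against 3 allow. Without the 10 promoters with the most tags, the shares were 11.2% and 7.68%. In bulk RNA, fewer cells that use a promoter and less RNA from it per cell cannot be told apart.

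The levels of single promoters differed widely between the lines. The test was edgeR's quasi-likelihood test with Benjamini-Hochberg adjustment over 31136 clusters, and fold changes are mOPCs over mESCs. The cell types differ at most clusters of the genome, with 45.5% higher in mOPCs and 44.7% higher in mESCs at an adjusted p under 0.05. Of 4418 sharp promoters tested, 1780 (40.3%) were higher in mOPCs, 2176 (49.3%) higher in mESCs, and 462 did not pass. At a fold of 4 or more, 27.5% of all clusters were higher in mOPCs and 25.6% in mESCs, against 1143 (25.9%) and 1461 (33.1%) of the sharp promoters. The median log2 fold change was -0.39 for sharp promoters, -0.14 for other promoters at coding starts and 0.03 for all clusters. Its median size without sign was 2.64, 1.55 and 2.20. Among promoters with under 1000 tags it was 2.69 for sharp and 2.28 for other ones, so the gap was smaller among weak promoters. Among deep main promoters it was 2.24 for sharp and 1.21 for other ones. A cluster entered by its pooled tags, so one that is silent in a cell type entered through the other: 289 sharp promoters had no mESC tag and 547 no mOPC tag.

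The tilt towards mESCs depended on the scaling. With library totals in place of TMM scaling, the median of all clusters moved from 0.03 to 0.51 and that of the sharp promoters from -0.39 to 0.08, and 2011 were higher in mOPCs and 1946 in mESCs. The scaling moved all clusters together, so the gap between sharp promoters and all clusters stayed by construction. Among the 721 deep main ones, 235 were higher in mOPCs and 439 in mESCs, with a median log2 fold change of -0.89, against -0.31 for the 8977 other deep main promoters. Among the 2922 that were not the main cluster of their gene there was no tilt, with 1290 higher in mOPCs, 1275 in mESCs and a median of 0.015. Among the 191 with TATAA, 54 were higher in mOPCs and 126 in mESCs, with a median of -1.43. TATAA could be found only where there was a sequence window. Among the 1497 sharp promoters with a window and no TATAA, 531 were higher in mOPCs and 795 in mESCs, with a median of -0.72. Of the 191 with TATAA, 22 belonged to histone genes, which are described below.

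**Figure D4:**
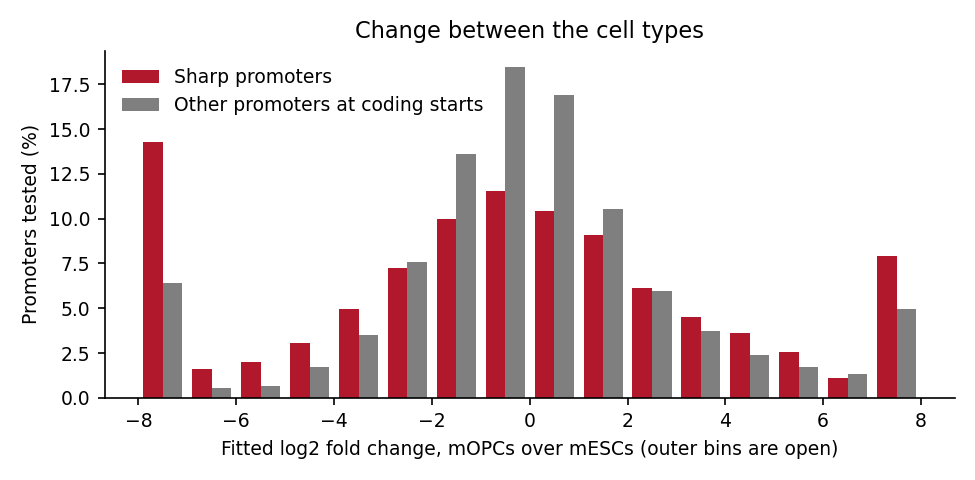
The horizontal axis gives the fitted log2 fold change of mOPCs over mESCs in bins of 1, and the vertical axis the percent of tested promoters. Red bars are sharp and grey bars other promoters at coding starts, and the outermost bins also hold all larger changes. Grey bars are tallest near 0, whereas 630 sharp promoters lie at or beyond the lower and 349 at or beyond the upper bin.

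Slc5a6, Npm1, Bcas1, Pabpc1, Eef2, Srsf5, Ddx5, Tubb5, Actb and Hist1h3e had the sharp promoters with the most tags. Slc5a6, which encodes a vitamin transporter, had 10.6, 10.5 and 9.26 CPM in mESCs and 9436, 7914 and 8349 CPM in mOPCs. This is an 844-fold difference (log2 fold change 9.72 ± 0.13, SE, adjusted p = 1.54e-68), and no library of one cell type came near the other. The sharp promoters of Slc5a6 together took a mean of 1.32% of all mOPC tags at coding starts and 0.000998% of mESC tags. The width of the main promoter was 4 bp although its cluster held 121 kept positions of 30 or more tags each, and 74.95% of its tags lay at 1 base.

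Bcas1, a marker of early myelinating oligodendrocytes, had 0.625, 0.572 and 0.741 CPM in mESCs and 2952, 2705 and 2534 CPM in mOPCs (log2 fold change 12.04 ± 0.17, adjusted p = 1.54e-68). In the other direction, Npm1, the nucleolar chaperone nucleophosmin, had 9963, 10462 and 9520 CPM in mESCs and 236, 276 and 246 CPM in mOPCs, and was 39.4-fold higher in mESCs (log2 fold change -5.30 ± 0.11, adjusted p = 5.20e-58). Pabpc1, the cytoplasmic poly(A)-binding protein, had 3927, 3898 and 3963 CPM in mESCs and 132, 182 and 136 CPM in mOPCs (-4.71 ± 0.11, adjusted p = 1.34e-48). At Bcas1, Npm1 and Pabpc1 the cell types were 26.2-fold or more apart, and no library of one came near the other.

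The other deep promoters changed less. Eef2, whose promoter had 91.9% of its tags at 1 base, had 1871, 1764 and 1486 CPM in mESCs and 678, 812 and 701 CPM in mOPCs (log2 fold change -1.22 ± 0.10, adjusted p = 4.16e-20). Ddx5, with 95.7% at 1 base, had 748, 734 and 767 CPM in mESCs and 1352, 1287 and 1130 CPM in mOPCs (0.75 ± 0.09, adjusted p = 1.70e-11). Srsf5 was 1.37-fold higher in mOPCs (0.45 ± 0.09, adjusted p = 1.11e-05). Actb, cytoplasmic actin, had 1656, 1337 and 1474 CPM in mESCs and 468, 509 and 506 CPM in mOPCs (-1.59 ± 0.10, adjusted p = 1.77e-26). Tubb5, a beta tubulin, was 6.57-fold higher in mESCs (-2.72 ± 0.16, adjusted p = 6.83e-10), with mESC libraries that spread from 1541 to 2519 CPM.

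**Figure D5:**
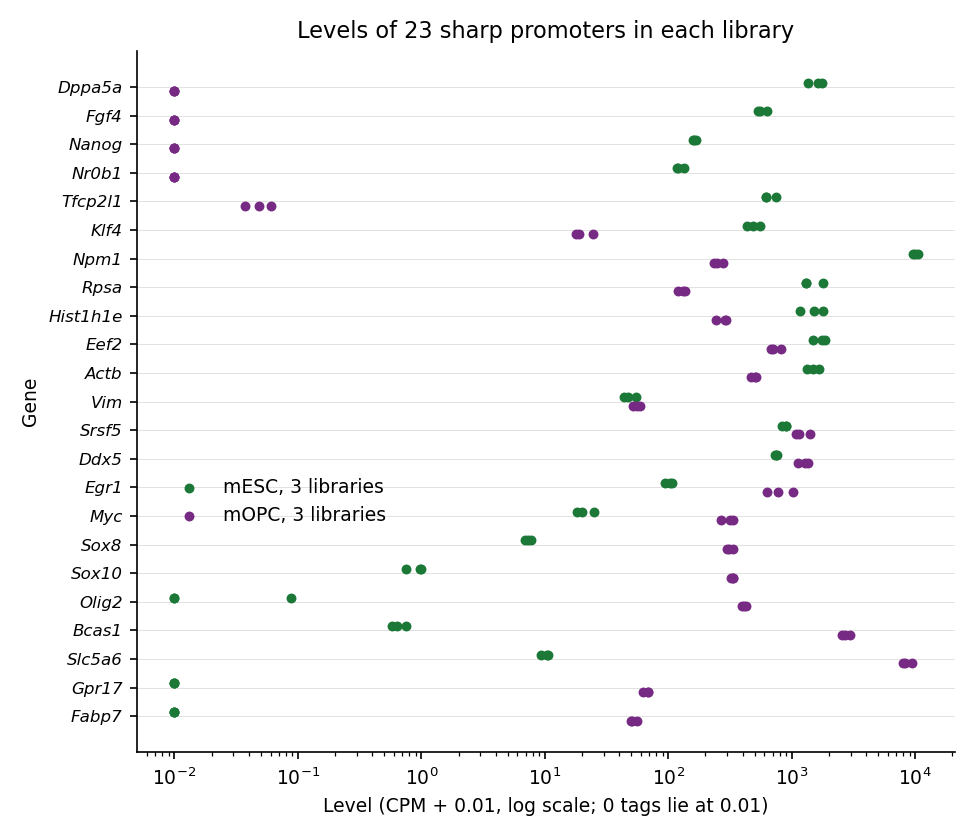
The horizontal axis gives the level in CPM with 0.01 added, on a log scale, and each row is 1 of 23 sharp promoters named in the text. Green points are the 3 mESC and purple points the 3 mOPC libraries, and points at 0.01 have no tag. Only at Vim do the points of the cell types overlap.

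Pluripotency genes with a sharp main promoter were all higher in mESCs. Of the 20 markers, 8 had one, and none of the 8 was higher in mOPCs. The main promoters of all 20 were higher in mESCs, whatever their width, and the same markers served above to check the labels. Of the 1498 sharp main promoters of all coding genes, 901 were higher in mESCs and 490 in mOPCs. Dppa5a, an RNA-binding protein of early embryos, had 1763, 1633 and 1349 CPM in mESCs and no tag in mOPCs. Against a floor of 3 tags over the pooled mOPC libraries it was at least 44708-fold higher in mESCs (adjusted p = 1.20e-62). Fgf4, the growth factor secreted by stem cells, had 628, 555 and 529 CPM in mESCs and no mOPC tag (at least 16111-fold, adjusted p = 8.59e-64). Nanog and Nr0b1, transcriptional regulators of pluripotency, were without mOPC tags too, with 169, 157 and 161 CPM and with 135, 118 and 121 CPM in mESCs. Tfcp2l1, a transcription factor of the naive state, had 1 tag in each mOPC library against 750, 621 and 619 CPM in mESCs, a ratio of 18865 with a 95% counting interval of 6455 to 91481.

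Among the 8 with a sharp main promoter, Klf4 was the marker that mOPCs also used. It had 551, 438 and 484 CPM in mESCs and 24.7, 18.8 and 17.9 CPM in mOPCs, and was 24.1-fold higher in mESCs (log2 fold change -4.59 ± 0.12, adjusted p = 2.45e-44). Dppa4 and Dppa3, regulators of the early embryo, had no mOPC tag and 2903 and 292 mESC tags. TATAA was found at 3 of the 5 promoters of this list that have a window, those of Klf4, Tfcp2l1 and Nr0b1.

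Oligodendrocyte genes with a sharp main promoter went the other way with 1 exception. By the summed level of all clusters of a gene at coding starts, 19 lineage markers were higher in mOPCs and 2 in mESCs. Of the 23 markers, 8 had a sharp main promoter, of which 7 were higher in mOPCs and 1, Mobp, was higher in mESCs. Olig2, the transcription factor that specifies the lineage, had 408, 396 and 423 CPM in mOPCs and 2 tags in 1 mESC library, a ratio of 10538 with a 95% counting interval of 2917 to 87020. Sox10, which drives myelin genes, had 0.743, 0.981 and 0.963 CPM in mESCs and 336, 324 and 331 CPM in mOPCs, 381-fold higher (log2 fold change 8.57 ± 0.16, adjusted p = 4.30e-60). Sox8, its close relative, had 7.74, 6.95 and 7.26 CPM in mESCs and 308, 302 and 332 CPM in mOPCs (5.41 ± 0.12, adjusted p = 3.61e-54). These 3 transcription factor genes had high and similar levels in all mOPC libraries.

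The remaining lineage markers spanned a wide range. Olig1, the partner of Olig2, was 106-fold higher in mOPCs (log2 fold change 6.72 ± 0.18, adjusted p = 1.86e-49). Gpr17, a receptor of progenitors that are about to differentiate, had 62.5, 67.9 and 68.4 CPM in mOPCs and no mESC tag (at least 1143-fold, adjusted p = 4.34e-51). Cnp, an enzyme of myelin, had 12.5, 10.8 and 11.7 CPM in mESCs and 54.2, 54.3 and 55.0 CPM in mOPCs (2.21 ± 0.11, adjusted p = 2.07e-30). Mobp, a structural protein of mature myelin, had 12.3, 11.04 and 11.8 CPM in mESCs and 0.101, 0.0382 and 0.191 CPM in mOPCs (-6.54 ± 0.27, adjusted p = 3.24e-36). All 619 tags of the Mobp promoter lay at a single position.

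Nearly all replication-dependent histone genes had a sharp main promoter. Replication-dependent histones package new DNA in S phase, and their RNAs lack a poly(A) tail, which does not matter in these randomly primed libraries. Of 55 genes with a cluster, 51 (92.7%) had a sharp main promoter, against 1498 of 11997 (12.5%) of all coding gene symbols, 1 of which stands for 2 gene identifiers. The median width of the main promoter was 3 bp. TATAA was present in 22 of the 38 with a window. Of the 51, 48 were higher in mESCs, 2 higher in mOPCs and 1 did not pass, and the median log2 fold change was -4.03. With library totals in place of TMM scaling, 47 were higher in mESCs and 4 in mOPCs. Among the 1498 sharp main promoters of all coding genes, 490 were higher in mOPCs, 901 in mESCs and 107 did not pass. Their median log2 fold change was -1.18, and the counts of the lists below are to be read beside these numbers.

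Levels differed between the histone genes. Hist1h3e had 2242, 1663 and 1684 CPM in mESCs and 82.9, 93.3 and 67.5 CPM in mOPCs (log2 fold change -4.52 ± 0.13, adjusted p = 2.84e-26). Hist1h1e, a linker histone, had 1795, 1519 and 1175 CPM in mESCs and 244, 293 and 288 CPM in mOPCs (-2.44 ± 0.12, adjusted p = 9.20e-20). Hist1h4d was 11.6-fold and the linker histone Hist1h1c 9.34-fold higher in mESCs. In all 4 the first mESC library was the highest, and no mOPC library reached the lowest mESC library. Outside the rule for named genes, and chosen after the values were seen, the exceptions were Hist1h2bm, with no mESC tag and 2.48, 2.83 and 2.81 CPM in mOPCs, Hist2h2be, with 2.89, 2.78 and 2.74 CPM and 3.60, 5.77 and 6.87 CPM (log2 fold change 0.97 ± 0.20, adjusted p = 6.25e-06), and Hist3h2ba, which did not pass (-0.08 ± 0.11, adjusted p = 0.461). Histone genes are near copies of each other, and tags of 21 to 27 bases that fit several of them equally were left out by the authors, so values of single genes are uncertain.

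Ribosomal protein genes had sharp promoters in a minority of cases, all higher in mESCs. Of 94 with a cluster, 22 (23.4%) had a sharp main promoter. All 22 were higher in mESCs, against 901 of the 1498 sharp main promoters of all coding genes. The median log2 fold change of the 22 was -2.88, close to the median of -3.05 of ribosomal protein genes with a broader main promoter. In all 10 with a window, the base after the recorded start was C and the next 4 were pyrimidines, as in Rpsa above, against 2.96% of all sharp promoters with a window. TATAA was present in 4 of the 10. Rps20 had 1911, 1644 and 1477 CPM in mESCs and 147, 182 and 136 CPM in mOPCs (log2 fold change -3.44 ± 0.11, adjusted p = 6.05e-37). Rpsa, the laminin receptor of the small subunit, had 1804, 1295 and 1300 CPM in mESCs and 132, 138 and 119 CPM in mOPCs (-3.50 ± 0.11, adjusted p = 2.30e-34). Rpl8 and Rps3 were 6.75-fold and 7.76-fold higher in mESCs, and 87.0% of the tags of Rpl8 lay at 1 base. Ribosomal protein genes have many processed copies in the genome, and tags that fit a copy as well were left out by the authors.

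The translation factor list leaned to mESCs whatever the promoter, with 53 of 64 main promoters higher there and a median log2 fold change of -1.63 for those that were not sharp. Of the 64 with a cluster, 8 (12.5%) had a sharp main promoter, of which 7 were higher in mESCs and 1, Eif1b, was higher in mOPCs (log2 fold change 0.51 ± 0.14, adjusted p = 0.000603). Eef1b2, a subunit of the elongation factor that reloads Eef1a, had 632, 664 and 616 CPM in mESCs and 63.2, 81.5 and 71.4 CPM in mOPCs (-3.14 ± 0.11, adjusted p = 1.03e-42). Eif4a2, a helicase of initiation, was 3.21-fold and Eif3f, a subunit of an initiation complex, 4.46-fold higher in mESCs. Eef2 is described above.

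Other genes of general function had sharp main promoters in shares near or under the 12.5% of all coding genes. Mitochondrial ribosomal proteins had 1 in 76, at Mrpl49 (log2 fold change -1.43 ± 0.11, adjusted p = 1.55e-21), which lay at the limit with a width of 10 bp. Respiratory chain subunits had 8 in 76, all higher in mESCs, as were 75 of the 76 main promoters of this list. Among them were Cox6a1, of complex IV, with 1316, 1505 and 1444 CPM in mESCs and 206, 194 and 148 CPM in mOPCs (-2.96 ± 0.11, adjusted p = 9.13e-38), and Ndufs7, of complex I, with 105, 80.4 and 78.3 CPM and 39.8, 39.3 and 38.0 CPM (-1.18 ± 0.10, adjusted p = 1.39e-17). Atp5a1, of the ATP synthase, was 5.43-fold higher in mESCs (-2.44 ± 0.10, adjusted p = 7.63e-37), and Ndufa12 was 4.30-fold higher (-2.11 ± 0.10, adjusted p = 8.86e-33). Proteasome subunits had 5 in 46. Whatever the width, 38 of the 46 main promoters of this list were higher in mESCs and 5 in mOPCs. The median log2 fold change of those that were not sharp was -1.58. Psmb2, Psma2 and Psmb7, subunits of the standard core, were 2.10-fold, 8.79-fold and 3.91-fold higher in mESCs. The subunits of the immunoproteasome were Psmb10, which was higher in mOPCs (3.25 ± 0.39), and Psmb9, with 1.84, 2.21 and 1.41 CPM in mESCs and 1.92, 2.37 and 2.10 CPM in mOPCs (0.24 ± 0.24, adjusted p = 0.332), which passed with library totals (0.72, adjusted p = 0.00371).

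Most inducible genes of the list had a sharp main promoter. Of 20 stress and immediate early genes, 16 (80%) had one as main promoter, of which 8 were higher in mOPCs and 8 in mESCs. The counts were the same with library totals, whereas the median log2 fold change of -0.22 became 0.25. Egr1, an immediate early transcription factor, had 108, 103 and 93.3 CPM in mESCs and 1021, 632 and 773 CPM in mOPCs (log2 fold change 2.99 ± 0.13, adjusted p = 2.31e-16). Myc, a driver of growth, had 25.2, 18.1 and 19.9 CPM in mESCs and 336, 267 and 318 CPM in mOPCs (3.85 ± 0.12, adjusted p = 1.65e-41). Dusp1, a phosphatase that is induced by growth factor signals, was 1.98-fold higher in mOPCs (0.99 ± 0.10, adjusted p = 1.26e-14). The first mOPC library was the highest in all 3. Hspa5 went the other way, with 690, 635 and 619 CPM in mESCs and 141, 119 and 138 CPM in mOPCs (-2.29 ± 0.10, adjusted p = 4.37e-35).

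The 8 genes higher in mOPCs were Fosb, Fos, Myc, Egr1, Egr2, Atf3, Ddit3 and Dusp1, and the 8 higher in mESCs were Mt2, Hspa1b, Hsp90aa1, Hmox1, Ier2, Hspa5, Hspa1a and Junb. Seen afterwards and not tested, 7 of the former encode transcription factors, and 4 of the latter encode chaperones. Fos had 8.01, 7.11 and 8.74 CPM in mESCs and 167, 110 and 116 CPM in mOPCs. Hspa1a and Hspa1b are near copies, and their values are uncertain.

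Structural genes were mixed. Of 12 cytoskeleton and filament genes with a cluster, 8 had a sharp main promoter, of which 2 were higher in mOPCs, 5 in mESCs, and Vim did not pass. For all coding genes the numbers were 490, 901 and 107 of 1498. Vim, the intermediate filament vimentin, had 43.6, 54.9 and 47.05 CPM in mESCs and 55.6, 58.6 and 51.8 CPM in mOPCs (log2 fold change 0.19 ± 0.10, adjusted p = 0.0664). Without mESC replicate 2, mOPC replicate 1 or mOPC replicate 3 it passed, at 0.27 to 0.29, as it did with library totals (0.66) and when only coding clusters were fitted (0.34). Nes, the filament nestin of neural progenitors, was 8.22-fold higher in mOPCs (3.04 ± 0.17, adjusted p = 3.96e-27). Nefl, a neurofilament, had 14.7, 21.8 and 19.3 CPM in mESCs and no mOPC tag. Of 10 tubulins with a cluster, 6 had a sharp main promoter, 2 higher in mOPCs and 4 in mESCs. Tubb4b was 4.72-fold higher in mESCs and Tubb2b 2.01-fold higher in mOPCs, and Tuba4a had 206, 156 and 157 CPM in mESCs and no mOPC tag.

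Collagens showed both directions with large sizes. Of 17 with a cluster, 7 had a sharp main promoter, 3 higher in mOPCs and 4 in mESCs, against 490 and 901 of 1498 for all coding genes. Col4a1, a chain of basement membranes, had 358, 321 and 304 CPM in mESCs and no mOPC tag (at least 9224-fold, adjusted p = 6.67e-62). Its neighbour Col4a2, which is read from the same intergenic region in the opposite direction, also had none (at least 394-fold). Col6a2 had 0.430, 0.245 and 1.04 CPM in mESCs and 61.0, 51.0 and 42.4 CPM in mOPCs (log2 fold change 6.53 ± 0.22, adjusted p = 9.80e-27), and Col27a1 was 38.7-fold higher in mOPCs. Both stromal and endoderm markers with a cluster were sharp and weak: Col1a1 had 1.11 to 1.64 CPM in mESCs and 4.74 to 5.64 CPM in mOPCs, and Gata6 had 3.19 to 3.67 CPM in mESCs and no mOPC tag.

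Zinc finger genes named Zfp were mostly broad. Of 332 with a cluster, 23 (6.93%) had a sharp main promoter, of which 8 were higher in mOPCs, 13 in mESCs and 2 did not pass. This split was near that of all coding genes, with 490, 901 and 107 of 1498. The related RNA-binding proteins Zfp36l1 and Zfp36l2, which speed the decay of messenger RNAs, went in opposite directions. Zfp36l1 had 967, 936 and 873 CPM in mESCs and 50.4, 58.8 and 63.7 CPM in mOPCs (16.02-fold lower in mOPCs, adjusted p = 5.88e-49). Zfp36l2 had 79.0, 61.8 and 62.5 CPM in mESCs and 203, 193 and 198 CPM in mOPCs (1.54 ± 0.10, adjusted p = 3.45e-24). Zfp989 and Zfp984 were 98.9-fold and 30.2-fold higher in mESCs, but belong to a cluster of near copies, so that their values are uncertain.

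By fitted fold change, which for a promoter without tags in a cell type depends on the prior count and gives no rank of true size, the rule for named genes took Gpr17 and Olig2, given above, and 6 other promoters with no mESC tag. Fabp7, a lipid carrier of radial glia and progenitors, had 49.5, 50.6 and 55.9 CPM in mOPCs and no mESC tag (at least 901-fold, adjusted p = 5.02e-49). Tnc, the matrix protein tenascin C, had 39.7, 35.4 and 36.5 CPM (at least 632-fold, adjusted p = 4.63e-46). Cdh19, a cadherin of glia, had 24.97, 24.98 and 22.9 CPM (at least 412-fold). Ifit3 and Ifit3b, interferon-induced antiviral proteins, had 52.7, 41.2 and 41.03 CPM and 32.3, 25.9 and 26.7 CPM, against bounds of at least 751-fold and 476-fold. They are near copies side by side, with uncertain shares, and TATAA lay 27 bases before the start of both. The last was a minor promoter of Trio, an exchange factor for small GTPases, with 10.3% of the tags of its gene.

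The 8 falls taken by the same rule all had no mOPC tag. Jade1 had 943, 859 and 847 CPM in mESCs and no mOPC tag (at least 24723-fold, adjusted p = 1.62e-65), and this promoter held 97.9% of the tags of the gene. Fabp3, a lipid carrier of muscle, had 388, 357 and 360 CPM in mESCs (at least 10279-fold). Lefty2, an antagonist of Nodal signals, had 269, 275 and 229 CPM in mESCs (at least 7158-fold), with 85.9% of its tags at 1 base. Phc1 and Nsd1, chromatin regulators, had no mOPC tag at a sharp promoter that held 44.4% and 37.2% of the tags of their gene, with the remaining tags at other clusters. Fgf4, Dppa5a and Col4a1, described above, complete this group.

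Around the limit of the rule, levels changed in both directions. Of the 5 deepest promoters with a width of 10 bp, App had 37.7, 33.9 and 36.01 CPM in mESCs and 287, 278 and 275 CPM in mOPCs (log2 fold change 2.96 ± 0.10, adjusted p = 4.20e-41). Fads2, a fatty acid desaturase, was 10.2-fold higher in mOPCs, whereas Lman1 was 2.77-fold and Hist1h2bf 22.1-fold higher in mESCs. AW554918 had 141, 124 and 131 CPM in mESCs and 138, 128 and 109 CPM in mOPCs and did not pass (-0.08 ± 0.10, adjusted p = 0.432). Of the 5 deepest at 11 bp, which are not sharp by the rule, Ncl was 5.48-fold and Ccdc58 7.39-fold higher in mESCs, Dync1li2 was 1.69-fold and Gxylt1 1.24-fold higher in mOPCs, and Hdac2 did not pass (-0.05 ± 0.09, adjusted p = 0.581).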

How the data were processed

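CAGE libraries of nuclear RNA from mESCs and mOPCs (3 each) were used. The authors reverse transcribed with random primers, captured capped 5′ ends, trimmed the tags to 21 to 27 bases, aligned them to mm10 and kept unique alignments, and the deposited counts are raw numbers of tags, 1 for each 5′ end mapped to a base of either strand. The methods name bowtie, whereas the submitters' processing notes list CASAVA 1.8 and BWA 0.5.9.

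Clusters were annotated with protein-coding transcripts of GENCODE M21. Sequences came from the RefSeq table of GRCm38.p6, the build of mm10, in which the first 8 bases of 26406 of 26414 coding transcripts matched. All clusters of 100 or more tags were fitted with edgeR 4.0.16 in R 4.3.3 (TMM, filterByExpr, robust quasi-likelihood test, Benjamini-Hochberg adjusted p under 0.05), and 31136 passed the filter on low counts. Level means counts per 1000000 of the tags in all clusters, with TMM-scaled totals (factors 0.805 to 0.875 in mESCs and 1.17 to 1.19 in mOPCs). CAGE tags mark starts, so levels do not scale with transcript length. The fit was run on simulated counts in which 200 of 31146 clusters changed by a log2 of 2, in both directions, with a biological coefficient of variation of 0.1. All 200 were called, and 12 of 212 calls were false. Few clusters changed there, whereas most differ between these lines, so the simulation does not test the scaling. Where a cell type had no tag, the fold is a bound from 3 tags over its pooled libraries, and with 1 to 3 tags a ratio with a 95% exact binomial interval. Python 3.11.15, pandas 2.3.3, scipy 1.17.1 and matplotlib 3.10.9 were used.

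Genes named are the 10 promoters with the most tags, the 8 with the largest change each way among those called with no overlap and 10 CPM or more, up to 4 main sharp promoters a list by tags (markers all), the 5 deepest at 10 and at 11 bp, and up to 8 with different dominant starts, of which 1 is not reported here. The promoters, lists and tests were chosen with earlier results of these data known. Alternatives were DESeq2 1.42.0, other scalings and filters, a replicate block, other cluster settings, and each library left out. Lists were described by counts, with no set test.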

Additional observations from a re-analysis of the deposited data

How the results depend on the processing

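The numbers of sharp promoters higher in mOPCs and in mESCs stayed within 1.5 times of 1780 and 2176 under DESeq2, RLE size factors, no filter, coding clusters alone, all tags counted, library totals and each library left out, except that 1143 were higher in mOPCs at a log2 fold change of 2 or more, a rule chosen after seeing the data. With the replicate block they were 1766 and 2161. The same replicate numbers correlated at 0.072, 0.037 and 0.031 in their deviations, and different numbers at -0.078 to 0.035. Deviations from the mean of 3 libraries depend on each other, so these small values cannot decide whether the numbers pair the samples. Of 3956 calls, 97.0% were called in the same direction by DESeq2 and 94.2% with library totals, where 30 turned sign. The rule itself moved more. The number of sharp promoters was 11122 when positions were joined up to 10 bp, 2187 up to 40 bp, 860 with 1000 tags for a cluster, 2927 with a width up to 5 bp and 1780 with all tags within 20 bp. The percent with TATAA, 11.3 in the main analysis, was 15.1 and 8.24 with 20 and 50 tags for a position, 4.94 and 18.7 when joined up to 10 and 40 bp, 26.9 with 1000 tags for a cluster, 14.8 and 8.49 with widths up to 5 and 15 bp, and 22.99 with all tags within 20 bp. The difference in the share of tags stayed between -2.57 and -3.84 percentage points in all cluster settings and with each library left out. Of the named promoters, AW554918 changed sign, to a log2 fold change of 0.39 with library totals and 0.062 when only coding clusters were fitted, and ranged from -0.12 to 0.058 with single libraries left out, above 0 without mOPC replicate 3. Tmbim6 lost its call with library totals, and Akap13 without mESC replicate 2 or 3 and when all tags were counted. For these named promoters the cause was not tested. Tag number limits the widths of clusters under 1000 tags.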

Other observations

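The genes that follow were picked after their values were seen, from no list set in advance, and were not tested as groups. A search for names of interferon-responsive genes gave 15 sharp main promoters. By mean level 13 of them were higher in mOPCs and 2 in mESCs. Of all 1498 sharp main promoters of coding genes, 490 were called higher in mOPCs and 901 in mESCs. Gbp6, an interferon-induced GTPase, had 0.195, 0 and 0 CPM in mESCs and 224, 197 and 170 CPM in mOPCs. Rsad2, the antiviral protein viperin, had 0.469, 0.491 and 0.815 CPM in mESCs and 102, 107 and 102 CPM in mOPCs, and Isg15 had 0 to 0.164 CPM and 35.4 to 47.5 CPM. The genes of the class I antigens differed: H2-D1 had 40.9 to 48.3 CPM in mESCs and 166 to 190 CPM in mOPCs, whereas H2-K1 had 41.05 to 49.9 CPM in mESCs and 4.77 to 5.27 CPM in mOPCs. Irf8 was also higher in mESCs, with 10.4 to 12.8 CPM against 3.24 to 4.71 CPM in mOPCs. B2m differed little, with 22.7 to 28.1 CPM in mESCs and 26.3 to 33.7 CPM in mOPCs.

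Among genes of secreted signals, Lefty1 had 42.9, 30.7 and 35.6 CPM and Nodal 30.3, 24.2 and 23.3 CPM in mESCs, both at a sharp main promoter with no mOPC tag.

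On mitochondrial DNA 14 clusters met the rule, at 6 genes, whose RNAs are cut from long transcripts. At mt-Nd1, mt-Nd2 and mt-Cytb the position as deposited was the annotated 5′ end. The mt-Cytb cluster had 24.6 to 32.6 CPM in mESCs and 43.0 to 71.5 CPM in mOPCs, and the mt-Nd1 cluster at the annotated end 27.3 to 45.5 CPM and 14.4 to 19.6 CPM. Without them the shares of tags in sharp promoters were nearly the same, with 13.7% in the first mESC library and 10.1% in the first mOPC library.

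Few levels rested on 1 library. Of 2273 sharp promoters with 100 or more mESC tags, 2 had over 70% of the summed mESC level in 1 library, and of 2493 with 100 or more mOPC tags 0 did.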
